A study of Mus musculus with 31 samples.

Results

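Mouse genes that encode the proteins of the cytosolic ribosome were followed through bone marrow stem and progenitor cells of β-glucan-treated and control mice. The genes were chosen by symbol alone: Rpl or Rps followed by digits and at most one of the letters a, l or x, together with Rplp0, Rplp1, Rplp2 and Rpsa, with names of pseudogenes and gene models left out. The rule took 82 of the 45706 identifiers in the count tables, 50 of the large subunit and 32 of the small one. Of these, 80 were annotated as protein coding, and Rps4l and Rpl6l as processed pseudogenes. Rps3a1, Fau, Rack1, Rpl22l1 and Rpl36al encode ribosome proteins or close relatives of them but fall outside the rule, and were kept as a separate list.

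RNA was sequenced from 31 samples in 8 groups, all from wild-type C57BL/6 mice labelled 10 weeks old. Long-term haematopoietic stem cells (LT-HSC, here HSC), which renew themselves and give rise to all blood cells, and multipotent progenitors (MPP), which lie downstream of them, were sorted from bone marrow. HSC at day 7 came from mice given PBS (n = 4) or 1 mg of β-glucan, a glucose polymer of fungal cell walls, into the peritoneum (n = 3). HSC at day 28 (4 PBS, 4 β-glucan) and MPP at day 28 (4 PBS, 4 β-glucan) made up a second table. The third held HSC from mice that received PBS (n = 4) or β-glucan (n = 4), then 150 mg/kg of 5-fluorouracil (5-FU), a drug that kills dividing cells, on day 7, and were killed 14 days after the drug. Both arms of that set carried 5-FU. Each library held between 19331663 and 39485556 counts assigned to genes. Nothing in the labels says whether animals were pooled or whether replicates came from separate animals, so the p-values speak of the spread between these libraries, which may be technical.

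The sorted identities were checked against marker genes, with MPP and HSC set side by side at day 28 only. The HSC marker list took 0.225% of counts in PBS HSC at day 7, 0.0619% at day 28 and 0.0646% after 5-FU. In PBS MPP it took 0.0463%, and at day 28 with β-glucan 0.0488% in HSC and 0.0465% in MPP. The MPP list took 0.139%, 0.0461% and 0.0271% in the same PBS HSC groups, and 0.109% in PBS MPP. Whether the HSC of different tables were alike was not tested. Slamf1 stood at 5.94 ± 1.81 CPM (counts scaled to the library total; SD, n = 4) in PBS HSC and 1.19 ± 0.194 in PBS MPP at day 28. Other HSC markers separated less: Kit stood at 236 ± 28.7 and 218 ± 24.5 in these groups. Ly6a was higher in MPP, at 35.7 ± 5.23 in PBS HSC and 61.8 ± 6.17 in PBS MPP. All 7 MPP markers, among them Flt3 and Cd34, were called higher in MPP than in HSC of PBS mice, and 8 of 14 tested HSC markers were called lower, with 1 called higher. In β-glucan mice 6 of 7 MPP markers were called higher, and of 15 tested HSC markers 9 were called lower and 3 higher. The libraries also held counts of other blood cells: haemoglobin genes took 17.6% of all counts in PBS HSC at day 28, 15.7% in β-glucan HSC, 15.7% in PBS MPP and 13.1% in β-glucan MPP. Neutrophil genes took 8.22%, 7.57%, 7.61% and 6.63% in the same order. At day 7 the haemoglobin share was 5.78% with PBS and 2.035% with β-glucan, and neutrophil genes took 6.36% and 10.65%. After 5-FU haemoglobin genes took 13.80% with PBS and 10.99% with β-glucan, and neutrophil genes 17.59% and 17.52%. The part of these cells in the results was not tested. For 1 library, PBS replicate 1 of the MPP, the label gave HSC as the cell type while the title gave MPP. The title was followed. The number of calls and the median of MPP against HSC, and some named genes, are given without this library too. Shares, subunit counts, lists, marker calls and promoter values that use it are given only with it.

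A ribosome is built from ribosomal RNA and one copy of most of these proteins, and the nucleolus assembles it with many non-ribosomal helpers. Their mRNAs begin with a stretch of pyrimidines, the 5′ terminal oligopyrimidine (TOP) motif, through which mTORC1 and LARP1 set how strongly they are translated. Blood-forming stem cells are known for a low rate of protein synthesis, and loss of one copy of any of several ribosomal protein genes causes Diamond-Blackfan anaemia, a failure of red cell production. Mammalian genomes also carry many processed pseudogenes of these genes, intronless copies made from their mRNAs. A short read from the mRNA can match such a copy as well as the gene, so the copies can bear on the counts of genes that share sequence with them.

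How alike gene and copy can be is seen in stretches of 60 coding bases, shown for genes that come up again in the comparisons, with bases that differ in capitals. Over its whole coding sequence of 642 bases, Rpl10 (chrX:74270812-74273135, plus strand, GRCm38), a protein of the ribosome's catalytic core region, differed at 0 bases from the pseudogene Rpl10-ps1 (chr2:105554201-105554845, minus strand). Both begin with the run below.
Rpl10 and Rpl10-ps1: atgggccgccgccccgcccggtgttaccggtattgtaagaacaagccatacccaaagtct
Rps6, Rpl10a and Rpl15 likewise had a pseudogene identical over the coding sequence: Rps6-ps4 over 747 bases, Rpl10a-ps1 over 651 and Rpl15-ps3 over 612. Rpl13 (chr8:123102350-123105244, plus strand) and Rpl13-ps6 (chr3:58987170-58987805, plus strand) differed at 3 of 633 bases, 2 of them in coding bases 559 to 618.
Rpl13: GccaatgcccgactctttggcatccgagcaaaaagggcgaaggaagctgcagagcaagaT
Rpl13-ps6: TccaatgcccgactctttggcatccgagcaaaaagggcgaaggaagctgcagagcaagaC
Rps2 (chr17:24718116-24721929, plus strand), a small subunit protein near the mRNA channel, and the pseudogene Gm12366 (chr4:35202103-35202975, minus strand) matched at 863 of 873 aligned bases, with 5 differences in the first 60 coding bases.
Rps2: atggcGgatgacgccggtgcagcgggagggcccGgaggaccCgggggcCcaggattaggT
Gm12366: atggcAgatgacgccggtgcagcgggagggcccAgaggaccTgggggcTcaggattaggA
By contrast, Rps4l (chr6:148354656-148355598, plus strand), an old intronless copy that the naming rule includes, matched its parent Rps4x (chrX:102184941-102189394, minus strand) at 79.6% of 789 bases, with 20 differences in coding bases 475 to 534.
Rps4x: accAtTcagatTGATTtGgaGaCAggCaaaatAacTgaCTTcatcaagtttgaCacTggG
Rps4l: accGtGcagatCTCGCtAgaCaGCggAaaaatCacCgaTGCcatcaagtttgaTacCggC
The diverged paralogues matched their partners less closely still in 2 of 3 cases: Rpl3l matched Rpl3 at 73.8% of bases, Rps27l matched Rps27 at 72.6% and Rpl39l matched Rpl39 at 85.0%.

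Across the 82 genes, a median of 58.7% of all 50-base windows of the transcripts occurred in another annotated gene, from 0%, as in Rpl3l and Rpl39l, to 98.6% in Rps27. A pseudogene that shares at least 1 such window with a member is called a copy here, and 811 copies were found, 9.90 per gene on average. In 34 genes under 50% of the windows were shared, and in 48 genes 50% or more.

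Rpl10 averaged 27.9 CPM over the day 7 libraries, 7.55 over day 28 and 19.4 over the 5-FU set, whereas its copy Rpl10-ps1 averaged 0.469, 709 and 793 CPM. Rps6, the substrate of S6 kinase, stood at 18.3, 10.7 and 39.2 CPM in the same order, and Rps6-ps4 at 281, 1532 and 1851. Rpl13 stood at 118, 50.9 and 30.95 CPM, and Rpl13-ps6 at 4.18, 1059.8 and 147. For these 3 genes the copy held more counts than the gene at day 28 and after 5-FU. Rplp0, which anchors the acidic stalk that recruits translation factors, was close across tables, at 1906, 2035 and 1966 CPM. The 3 tables were made from different sets of mice, so table, day and cells cannot be told apart, and levels across tables are given as a description.

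On a scale corrected for transcript length (CPM per kilobase), the 76 coding genes other than the 4 paralogues Rpl3l, Rpl10l, Rpl39l and Rps27l spread widely even though their proteins are used in near-equal number. At day 28 the 10th percentile of the level was 10.9, the median 199 and the 90th percentile 1192, a ratio of 109 between the outer values. With the counts of the copies added to each gene, the 10th percentile rose to 350 and the 90th to 1902, and the ratio was 5.43. The ratio went from 40.5 to 5.83 in the 5-FU set and from 86.9 to 20.9 at day 7. At day 28 the 29 genes with under 50% of their windows shared had a median level of 362 CPM per kilobase, and the 47 with 50% or more shared had 96.1. Across genes, which are not independent replicates, Spearman's rho between level and shared windows was -0.52 at day 7, -0.44 at day 28 and -0.43 in the 5-FU set.

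**Figure D1:**
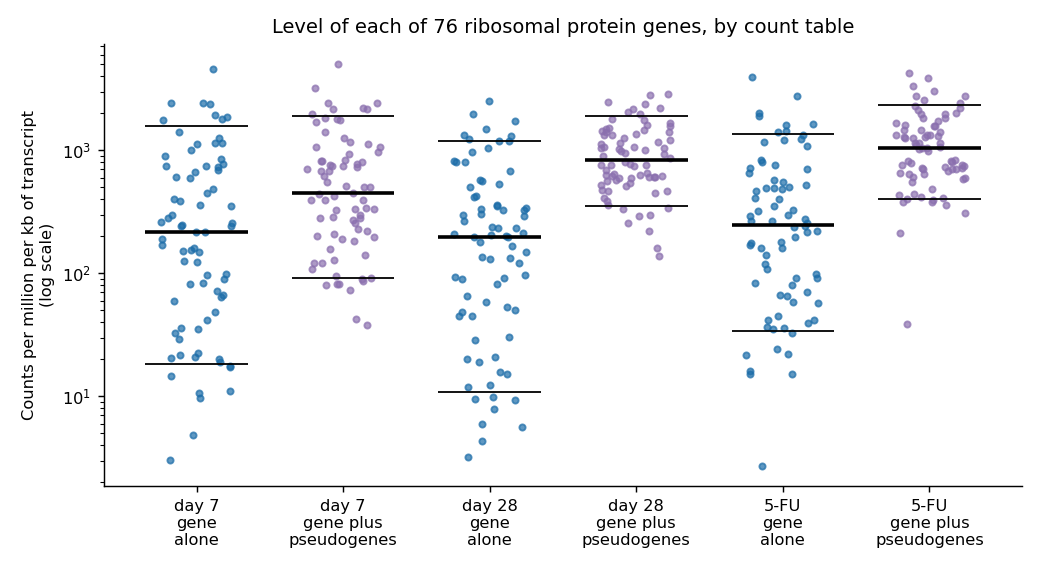
Each point is 1 of 76 ribosomal protein genes, plotted in CPM per kilobase of transcript on a log axis for each count table, without and with the counts of its pseudogene copies; thick lines mark medians and thin lines the 10th and 90th percentiles. Adding the copies narrows the spread at day 28 from a ratio of 109 between the outer deciles to 5.43.

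Over all libraries the highest levels per kilobase belonged to Rpl32 (3348), Rps9 (2290.1), Rpl41 (1809) and Rps14 (1707), all of them genes with under 50% of their windows shared. The lowest were Rpl10l (0.00522), Rpl3l (0.470) and Rpl39l (0.767), paralogues known from testis and muscle, followed by Rpl24 (3.04) and Rpl23a (7.93). Rpl10l had counts in 5 of 31 libraries and was tested in no comparison. Rpl24 and Rpl23a encode ordinary large subunit proteins. At day 28 Rpl24 stood at 2.16 CPM and its copies together at 400.0 CPM, and Rpl23a stood at 3.17 CPM beside 990 CPM on its copies.

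The share of all counts that the 82 genes took showed how the groups differed as a whole. It was 3.22% ± 0.164 (SD, n = 4) in PBS HSC at day 7 and 3.22% ± 0.218 (n = 3) with β-glucan. HSC at day 28 stood at 2.08% ± 0.224 with PBS, from 1.77% to 2.26%, and at 2.05% ± 0.118 with β-glucan, from 1.94% to 2.22%. MPP at day 28 stood at 2.58% ± 0.0972 with PBS, from 2.48% to 2.70%, and at 2.65% ± 0.106 with β-glucan, from 2.50% to 2.72%. After 5-FU the share was 2.87% ± 0.193 with PBS and 2.89% ± 0.0873 with β-glucan. Shares with PBS and with β-glucan overlapped in each of the 4 settings, and every MPP library lay above every HSC library of day 28. In bulk samples fewer cells of a type and less RNA per cell cannot be told apart.

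Copies held 1.27% of counts in PBS HSC at day 7, 3.18% in PBS HSC at day 28, 3.92% in PBS MPP and 3.99% in PBS HSC after 5-FU. Of the counts on genes and copies together, copies took 28.2% in PBS HSC at day 7, 60.4% at day 28 and 58.1% after 5-FU, and with β-glucan 28.2%, 60.7% and 58.4%. The copies of a gene held more counts than the gene itself for 31 of 82 genes at day 7, 54 at day 28 and 50 after 5-FU. With the copies added, the shares were 4.49% and 4.49% at day 7 (PBS and β-glucan), 5.26% and 5.22% for day 28 HSC, 6.503% and 6.75% for MPP, and 6.85% and 6.94% after 5-FU.

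**Figure D2:**
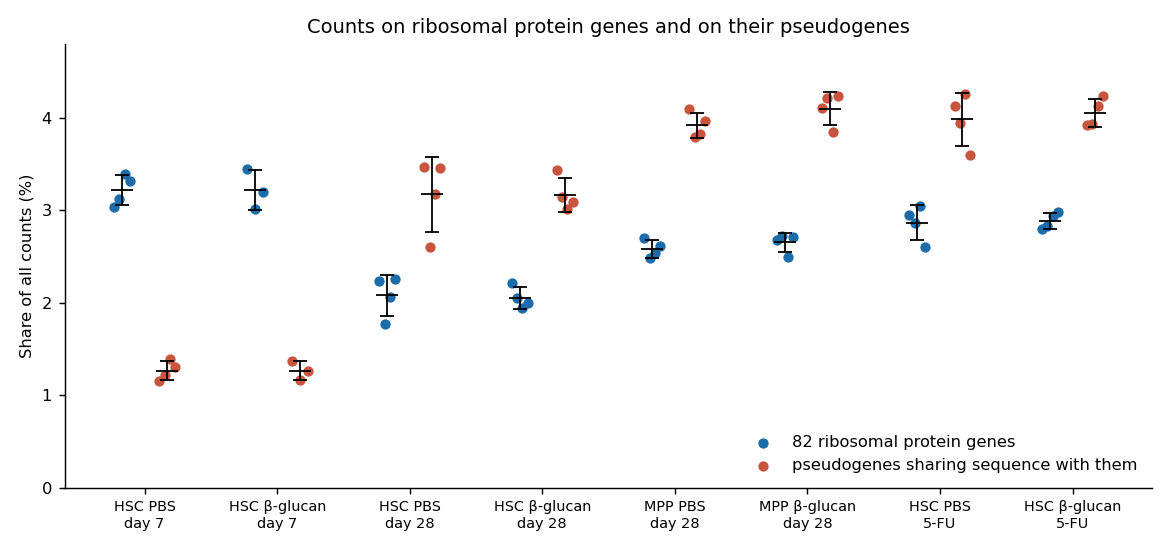
The share of all counts (percent, from 0) on the 82 ribosomal protein genes and on their pseudogene copies in each library, by group, with the mean and SD in black. Copies hold 1.27% of counts in PBS HSC at day 7 and 3.18% at day 28, and the MPP libraries lie above the HSC libraries of day 28 in both arms.

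Few of these genes were called with β-glucan at any time, by the threshold given next. In HSC at day 28 and after 5-FU edgeR called few genes of any kind (0.0374% and 0.0446%). The lack of calls there does not set these genes apart. Each gene was tested with edgeR's quasi-likelihood test on the counts, p-values were adjusted by the Benjamini-Hochberg method over all genes tested, and a gene is called where the adjusted p was under 0.05. Fold changes are log2 values with their standard errors.

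In HSC at day 7, 1 of 81 tested ribosomal protein genes was called higher and 0 lower, against 6.72% of all genes called in either direction, 2.83% higher and 3.88% lower. The one was Rps4l. It read 28.2, 39.1 and 34.3 CPM in the β-glucan libraries and 23.8, 17.8, 19.4 and 24.0 in the PBS libraries, so the groups did not overlap. Its log2 fold change was 0.67 ± 0.14 (adjusted p = 0.0177). The call held in 3 of the 7 fits that each left out a library, with an adjusted p of 0.0956 without β-glucan replicate 2. Its parent Rps4x read 317, 334, 360 and 398 CPM with PBS and 347, 326 and 346 with β-glucan, with a log2 fold change of -0.05 ± 0.09.

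The middle 50% of the 81 genes at day 7 lay between 0.01 and 0.10. Apart from Rps4l, the values farthest from zero belonged to 3 genes of low level, each with group means of at most 2.63 CPM and an adjusted p above 0.5: Rpl39l at -0.57 ± 0.48, Rpl3l at -0.42 ± 0.46 and Rpl6l at 0.40 ± 0.30. Positive fold changes were seen for 63 of 81, against 49.0% of all genes, with a median of 0.05 that lay within the SD of 0.09 between the libraries' median shifts. Without PBS replicate 1 the median was 0.01, and without PBS replicate 3 it was 0.11. All β-glucan libraries lay above all PBS libraries for 6 genes and below them for 0, against 8.73% and 10.2% of all genes. Only Rps4l had an unadjusted p under 0.05, against 20.0% of all genes. Large subunit genes had a median of 0.03 and small subunit genes one of 0.09. Of the 20 genes mutated in Diamond-Blackfan anaemia, 0 were called, at an unadjusted p under 0.05 as well. Rps19, the most often mutated of them, read 870, 910, 1122 and 1077 CPM with PBS and 1037, 1014 and 934 with β-glucan, and its groups overlapped. Markers of other cells moved at day 7: 12 of 14 erythroid and 9 of 10 B cell genes were called lower with β-glucan, and 12 of 15 neutrophil genes higher. Their part in these values was not tested.

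In HSC at day 28, edgeR called 0 of 80 tested genes, against 0.0374% of all genes, every one of them higher. At an unadjusted p under 0.05 there were 5, against 17.0% of all genes. DESeq2 called 0 of 79, against 4.27% of all genes by that tool. With limma voom 1 of 80 was called, against 3.73% of all genes: Rps3, a protein of the mRNA entry site (log2 fold change -0.22). Values were positive for 15 of 80 genes, against 47.2% of all genes, with a median of -0.06 against -0.02 for all genes and an SD of 0.09 between libraries. All β-glucan libraries lay above all PBS libraries for 1 gene and below them for 3, against 4.59% and 4.05% of all genes. Rps2 had the largest change, 0.92 ± 0.25 (adjusted p = 0.143). It read 44.9, 43.3, 73.0 and 106 CPM with β-glucan and 41.4, 30.9, 37.9 and 28.1 with PBS. All 4 β-glucan libraries were above the PBS ones, and replicates 3 and 4 were far above replicates 1 and 2. Rpl4, which lines the peptide exit tunnel, read 1301, 1762, 1174 and 1515 CPM with PBS and 1153, 1175, 1234 and 1151 with β-glucan (-0.31 ± 0.12, adjusted p = 0.22), with groups that overlapped. Rpl18, a Diamond-Blackfan anaemia gene, read 62.6, 55.5, 60.2 and 58.0 with PBS and 52.6, 48.8, 53.4 and 52.7 with β-glucan, lower in all 4 libraries (-0.21 ± 0.07, adjusted p = 0.191).

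The libraries of PBS replicate 2 and β-glucan replicate 3 stood lowest of the HSC at day 28, with median shifts of these genes of -0.26 and -0.22 on the log2 scale from the mean of the table. Without both libraries, an alternative chosen after seeing the data, 2 of 80 genes were called lower and 0 higher, against 1.82% and 2.33% of all genes: Rpsa, the laminin-receptor protein of the small subunit, at -0.33 ± 0.06 (adjusted p = 0.0232), and Rpl23 at -0.28 ± 0.06 (adjusted p = 0.0475).

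In MPP at day 28, 2 of 80 tested genes were called higher with β-glucan and 0 lower, against 4.63% of all genes in either direction, 2.72% higher and 1.91% lower. Rpl13 read 56.0, 56.3, 51.1 and 65.5 CPM with β-glucan and 38.8, 44.5, 38.4 and 46.0 with PBS. The groups did not overlap, which held for these 2 genes alone, both higher, against 6.70% of all genes higher and 5.78% lower. The log2 fold change was 0.45 ± 0.08 (adjusted p = 0.0139). Its near-identical copy Rpl13-ps6 read 1120, 1063, 1217 and 1387 CPM with β-glucan and 763, 851, 815 and 883 with PBS, with no overlap. A short read can match both gene and copy, so the copy is not a separate observation. With copies added, Rpl13 changed by 0.51 ± 0.08 (adjusted p = 0.0073). The call held without PBS replicate 1 (0.41, adjusted p = 0.0452) but was lost without PBS replicate 3 (adjusted p = 0.0547) and where all 8 groups shared 1 fit (adjusted p = 0.107).

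Rps2 in MPP read 32.3, 27.3, 58.7 and 82.6 CPM with β-glucan and 18.8, 22.2, 19.3 and 19.4 with PBS. All 4 β-glucan libraries lay above the PBS libraries, and replicates 3 and 4 were again the highest, as they were in HSC. The log2 fold change was 1.33 ± 0.27 (adjusted p = 0.0204), and it was called in 3 of the 8 fits that left out a library, with adjusted p up to 0.0703 (0.0646 without PBS replicate 1). Gm12366, a copy of Rps2, read 22.6, 16.1, 58.2 and 71.2 CPM with β-glucan and 10.4, 11.6, 11.2 and 11.7 with PBS. In HSC of day 28 the same copy read 32.3, 34.0, 65.7 and 89.8 with β-glucan and 29.3, 23.4, 28.2 and 19.1 with PBS. It shares long stretches with Rps2, so its values are not a separate observation.

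**Figure D3:**
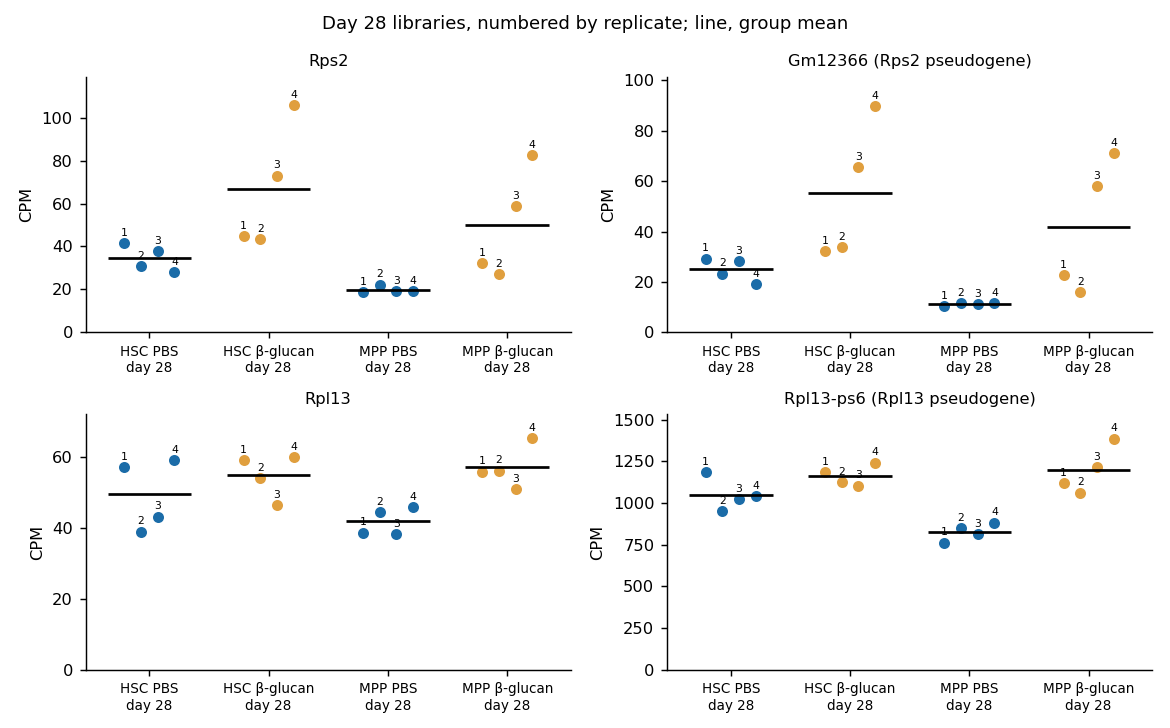
CPM (from 0) of Rps2, Rpl13 and 1 pseudogene copy of each in the 16 libraries of day 28, with points numbered by replicate and a line at each group mean. β-Glucan replicates 3 and 4 are the highest for Rps2 and Gm12366 in both cell types, and β-glucan MPP lie above PBS MPP for Rpl13 and Rpl13-ps6.

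Over all 80 genes tested in MPP, Rpl13 and Rps2 included, the values had a median log2 fold change of -0.05, against -0.001 for all genes and an SD of 0.09 between libraries, with 14 positive values, against 49.7% of all genes. Scaled by total counts instead of the trimmed mean of M-values (TMM), the median was 0.03, so the sign rests on the scaling. An unadjusted p under 0.05 was found for Rpl13 and Rps2 alone, 2 of 80, against 19.3% of all genes. Of the 20 Diamond-Blackfan anaemia genes 0 were called by edgeR, 0 of them at an unadjusted p under 0.05. Next in order of p was Rpl36 at -0.19 ± 0.09, and Rpl24 had the lowest value at -0.28 ± 0.14.

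After 5-FU, edgeR, DESeq2 and limma voom each called 0 of 81 tested genes with β-glucan, against 0.0446% of all genes by edgeR (0.0382% higher and 0.00637% lower), 0.962% by DESeq2 and 0.267% by limma voom. At an unadjusted p under 0.05 there were 3, against 7.54% of all genes. Rps27l, a p53-inducible paralogue of Rps27, had the smallest p, with a log2 fold change of -0.15 ± 0.06 (adjusted p = 0.615). Rps14, whose loss marks the 5q- syndrome of human marrow, had -0.14 ± 0.06 and lower values in all 4 β-glucan libraries (adjusted p = 0.618). The groups lay apart for 1 gene higher and for 1 lower, against 2.74% and 1.83% of all genes. Of the 81 genes 20 had a positive value, against 49.2% of all genes, and the median was -0.04 with TMM and 0.02 with total counts. Rps2 was level here, at 16.3, 15.7, 17.0 and 13.3 CPM with PBS and 15.1, 15.3, 14.8 and 16.7 with β-glucan. The paralogues Rpl39l (0.57 ± 0.31) and Rpl3l (-0.69 ± 0.38) had the largest values, at levels under 2 CPM in every library. Of 14 erythroid and 15 neutrophil genes 0 were called with β-glucan, with medians of -0.32 and -0.07. The part of other blood cells in these values was not tested.

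**Figure D4:**
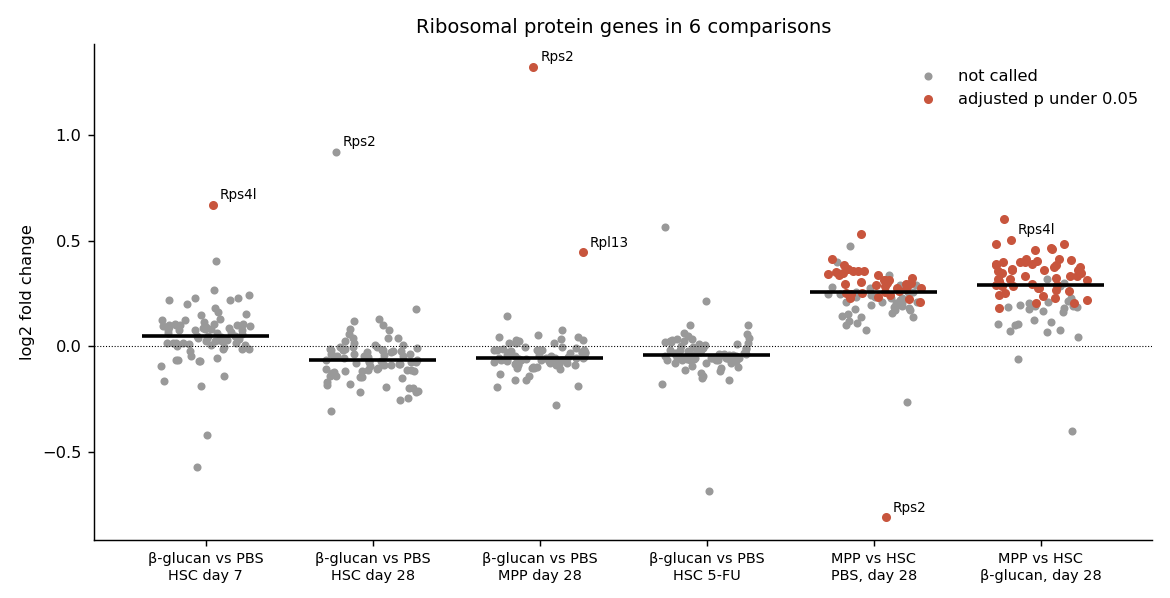
The log2 fold change of each tested ribosomal protein gene in 6 comparisons, with genes at an adjusted p under 0.05 in red and a black line at the median. The 4 comparisons of β-glucan with PBS hold 1, 0, 2 and 0 called genes, and the medians of MPP against HSC are 0.26 and 0.29.

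Progenitors against stem cells gave more calls, nearly all of genes higher in MPP. In PBS mice the number of calls fell to 16 without 1 library, whose label conflicted with its title. In PBS mice 37 of 80 tested genes were called higher in MPP and 1 lower, against 21.7% of all genes called, 9.58% higher and 12.1% lower. In β-glucan mice 52 of 80 were called higher and 0 lower, against 35.6% of all genes, 17.7% higher and 18.0% lower. Both fits took the libraries as unpaired. In each arm 78 of 80 genes had a positive log2 fold change, against 47.2% and 49.0% of all genes. The median was 0.26 in PBS mice and 0.29 in β-glucan mice, against -0.02 and -0.01 for all genes and an SD of 0.08 and 0.10 between libraries, and the middle 50% of the genes lay between 0.21 and 0.31 and between 0.19 and 0.37. The arms share no library, and 35 genes were called higher in both. In PBS mice the MPP values lay above all HSC values for 63 genes, against 13.4% of all genes, and in β-glucan mice for 38, against 16.8%. They lay below for 1 gene and for 0, against 12.8% and 17.3%. An unadjusted p under 0.05 was found for 64 and 56 genes, against 35.2% and 45.2% of all genes.

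Both subunits took part, where 9.58% of all genes were called higher in PBS mice and 17.7% in β-glucan mice. Of 48 large subunit genes 23 were called higher with PBS and 33 with β-glucan, with medians of 0.27 and 0.30. Of 32 small subunit genes 14 and 19 were called higher, with medians of 0.23 and 0.28. Genes with few matches elsewhere showed it too: among the 32 tested genes with under 50% of their windows shared, 14 and 20 were called higher and the medians were 0.24 and 0.31. Adding the copies to each gene raised the calls in either direction to 50 in PBS mice and 62 in β-glucan mice. Over all genes that setting called 3394 of 15557 and 5560 of 15402.

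Among large subunit genes, Rpl18 read 85.1, 79.3, 72.9 and 71.0 CPM in PBS MPP and 62.6, 55.5, 60.2 and 58.0 in PBS HSC. All MPP values were above all HSC values (0.37 ± 0.07, adjusted p = 0.0057), as they were with β-glucan (0.48 ± 0.07, adjusted p = 0.000462). Rpl22, whose loss impairs lymphoid development, read 239.8, 228, 227 and 227 CPM in PBS MPP and 201, 154, 176 and 182 in PBS HSC (0.36 ± 0.08, adjusted p = 0.00939), and rose with β-glucan too (0.46 ± 0.07). Rpl10 read 10.0, 9.70, 8.69 and 8.66 in PBS MPP and 6.19, 5.88, 7.06 and 6.22 in PBS HSC (0.53 ± 0.11, adjusted p = 0.00553), and 0.36 ± 0.07 with its copies added (adjusted p = 0.00481). Rpl4 rose from 1153, 1175, 1234 and 1151 in β-glucan HSC to 1619, 1643, 1618 and 1665 in β-glucan MPP (0.48 ± 0.06, adjusted p = 0.000153). In PBS mice the HSC values of Rpl4 ranged from 1174 to 1762 and overlapped those of MPP (0.24 ± 0.11, adjusted p = 0.147).

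Among small subunit genes, Rps4x read 247, 227, 241 and 227 CPM in PBS MPP and 191, 160, 202 and 173 in PBS HSC (0.36 ± 0.08, adjusted p = 0.00931), with 0.38 ± 0.05 in β-glucan mice. Rps24 rose by 0.32 ± 0.07 and 0.41 ± 0.07.

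Of the 20 Diamond-Blackfan anaemia genes, 13 were called higher in MPP of PBS mice and 16 in MPP of β-glucan mice, with medians of 0.28 in both. The medians of all 80 tested ribosomal protein genes were close, at 0.26 and 0.29, with 37 and 52 called higher. Of all genes 9.58% and 17.7% were called higher. Rpl11 and Rpl5, which with 5S RNA bind and restrain Mdm2 when ribosome assembly fails, were both called. Rpl11 rose by 0.41 ± 0.10 in PBS mice (adjusted p = 0.0128) and by 0.36 ± 0.09 in β-glucan mice. Rpl5 rose by 0.22 ± 0.07 (adjusted p = 0.0379) and 0.18 ± 0.06 (adjusted p = 0.0423). Rps19 was called in neither arm, at 0.21 ± 0.08 (adjusted p = 0.0788) and 0.11 ± 0.13 (adjusted p = 0.517). Of the stalk proteins, Rplp2 rose in both arms (0.25 ± 0.08 and 0.26 ± 0.09), and Rplp1 (0.32 ± 0.08) and Rplp0 (0.21 ± 0.07, adjusted p = 0.0375) rose in β-glucan mice.

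Rps2 ran the other way. PBS HSC read 41.4, 30.9, 37.9 and 28.1 CPM and PBS MPP 18.8, 22.2, 19.3 and 19.4, with no overlap (-0.81 ± 0.12, adjusted p = 0.00095). In β-glucan mice the values of Rps2 spread widely in both cell types, and the difference was -0.40 ± 0.36 (adjusted p = 0.41). MPP were lower in 4 of 4 same-numbered pairs, and with the replicate number as a block the difference was -0.44 ± 0.07 (adjusted p = 0.000588). Rpl13 was the other gene with a negative value in PBS mice, at -0.26 ± 0.13 (adjusted p = 0.185), and at -0.33 ± 0.09 with its copies added (adjusted p = 0.0245).

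The counts of calls in PBS mice depended on single libraries. Leaving out 1 library at a time gave from 16 calls (without MPP PBS replicate 1, the library whose label gave HSC as its cell type and MPP in its title) to 50 (without HSC PBS replicate 2), with 22 without MPP PBS replicate 3. The share of all genes called in such fits is not given here. Whether calls of all genes rose and fell alike was not tested. The median lay between 0.21 and 0.29, and at 0.25 without MPP PBS replicate 1. Without that library Rpl18, Rpl22, Rpl10, Rps4x, Rps24, Rpl11 and Rps2 were still called, and Rpl5 was not (adjusted p = 0.0884). In β-glucan mice the calls ranged from 39 to 51. Called in every such fit were 15 of 38 genes in PBS mice, with Rpl5 and Rplp2 not among them, and 38 of 52 in β-glucan mice. There Rpl5, Rplp0 and Rplp2 were each called in 2 of the 8 such fits, and Rpl5 in 8 of the 11 fits with another setting. Markers moved with this contrast: 9 of 14 erythroid genes were called lower in MPP of PBS mice and 12 of 14 in β-glucan mice, 0 higher. Of the megakaryocyte and platelet genes, 6 of 7 and 7 of 8 were called lower, with medians of -2.01 and -1.87, and of 15 neutrophil genes 4 and 9 were called lower and 1 higher in each arm. Of 10 B cell genes 6 and 4 were called higher, and the list took 0.372% of counts in PBS MPP and 0.176% in PBS HSC. The part of these markers in the result was not tested. With haemoglobin left out of the total, the share of the 82 genes was 2.52% in PBS HSC and 3.07% in PBS MPP.

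**Figure D5:**
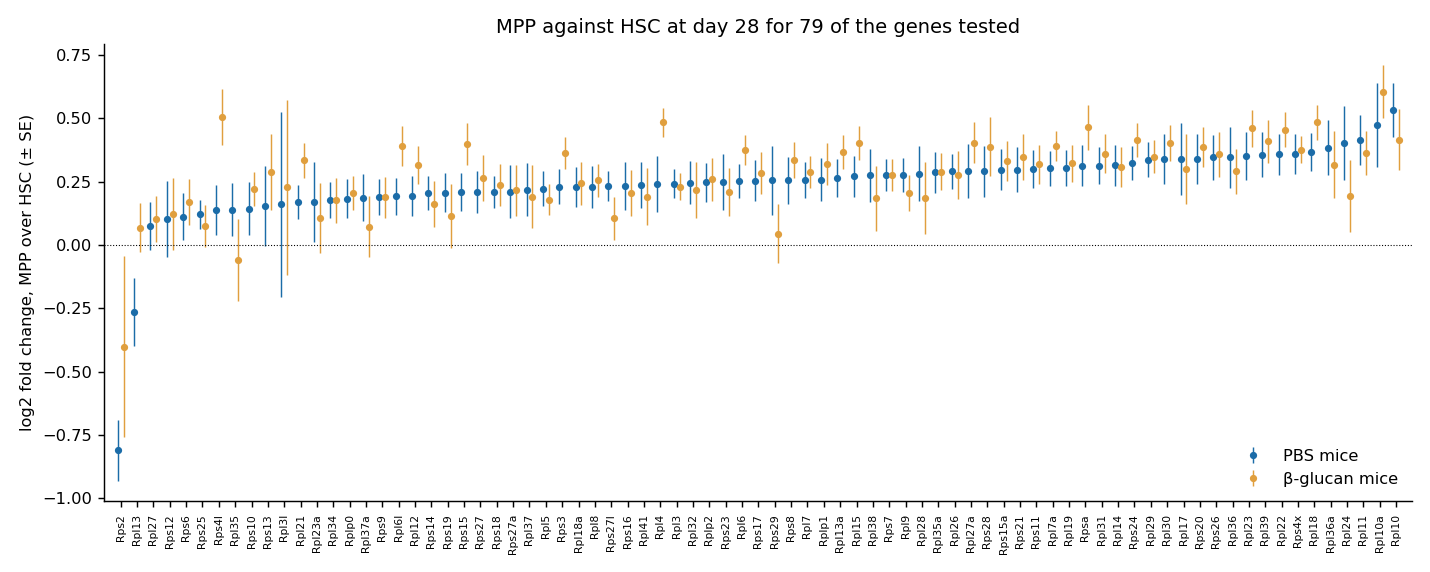
The log2 fold change of MPP over HSC at day 28 (± SE) for 79 of the 80 tested genes, ordered by the value in PBS mice, with PBS and β-glucan mice side by side. All but 2 of the genes lie above zero in each arm, and Rps2 is the lowest in both.

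Genes that make ribosomes and start translation were read out as lists in the same contrast, where 9.58% of all genes were called higher and 12.1% lower in PBS mice, and 17.7% and 18.0% in β-glucan mice. Of 50 ribosome biogenesis factors, 25 were called higher in MPP of PBS mice and 0 lower, with a median of 0.25. In β-glucan mice 39 were higher and 0 lower, with a median of 0.37. Nolc1, a nucleolar phosphoprotein, rose by 0.69 ± 0.07 and 0.72 ± 0.07, Ncl (nucleolin) by 0.57 ± 0.08 and 0.68 ± 0.09, and the nucleolar GTPase Gnl3 by 0.43 ± 0.07 and 0.71 ± 0.07. For RNA polymerase I, which transcribes ribosomal RNA, 7 of 14 genes were called higher with PBS and 8 with β-glucan, 0 lower. Taf1d rose by 0.47 ± 0.09 and 0.46 ± 0.07. Myc, which drives ribosome production, was called higher in both arms (0.57 ± 0.08 and 0.78 ± 0.07), whereas Mycn, a stem cell member of the family, was lower (-1.68 ± 0.29 and -1.39 ± 0.23), as was the antagonist Mxd1 (-0.52 ± 0.13 and -0.78 ± 0.08).

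Partners of the ribosome outside the naming rule rose in part, and these and the further lists stand against the same shares of all genes. Rps3a1 rose by 0.29 ± 0.07 and 0.35 ± 0.06, and Rack1, the scaffold on the small subunit, by 0.25 ± 0.06 in β-glucan mice. The fusion gene Fau, which encodes a ubiquitin-like protein joined to a ribosomal protein, was called in neither arm. Among 12 elongation and TOP factors, 5 were higher and 2 lower with PBS, and 7 higher and 0 lower with β-glucan. Npm1 (0.47 ± 0.06 and 0.66 ± 0.06) and Eef1g (0.38 ± 0.06 and 0.44 ± 0.06) were among the higher genes, and Tpt1, a TOP mRNA, was lower in PBS mice (-0.48 ± 0.10). Initiation factors split 9 higher to 3 lower of 30 with PBS and 17 to 3 with β-glucan. In the mTORC1 list 0 of 13 were higher and 3 lower with PBS, and 1 of each with β-glucan, with Rheb, the activator of mTORC1, at -0.97 ± 0.14 in PBS mice. In the list of the p53 response to impaired ribosomes 1 of 11 was higher and 3 lower with PBS, and 1 and 2 with β-glucan. Mitochondrial ribosomal proteins, a separate set of nuclear genes, gave 17 higher and 2 lower of 77 with PBS, and 33 higher and 0 lower with β-glucan, with medians of 0.14 and 0.16.

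With β-glucan against PBS in MPP, 2.72% of all genes were called higher and 1.91% lower. In the lists, 4 of 30 initiation factors were called higher, among them Eif5a (0.37 ± 0.09) and Eif4h (0.27 ± 0.06). Also higher were the biogenesis factors Bysl (0.26 ± 0.05) and Bop1 (0.26 ± 0.06), 2 of 50. Tpt1 (0.44 ± 0.08), Myc (0.30 ± 0.07) and Rheb (1.26 ± 0.22) rose as well, and of mitochondrial ribosomal proteins 3 of 77, Mrps15 (0.81 ± 0.13), Mrps35 (1.27 ± 0.28) and Mrpl38 (0.44 ± 0.11). In HSC at day 7, with 2.83% of all genes called higher and 3.88% lower, the called genes of the lists were Eif5, lower by -0.40 ± 0.09, and Mlst8, higher by 0.47 ± 0.11. MPP with β-glucan and with PBS differed in markers too: 8 of 10 B cell genes, 4 of 10 T and NK cell genes and 6 of 15 neutrophil genes were called lower with β-glucan, and 4 of 7 platelet genes and 3 of 15 neutrophil genes higher. Their part was not tested.

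The difference of the β-glucan effect between settings was tested with a contrast of 4 groups. Between day 28 and day 7 in HSC, 2 of 81 genes were called, both lower at day 28, against 4.82% of all genes called, 2.24% higher and 2.58% lower. For Rps4l the effect was 0.67 at day 7 and -0.22 at day 28, a difference of -0.91 ± 0.20 (adjusted p = 0.0138). At day 28 it stood at 13.1 ± 1.49 CPM with PBS and 11.5 ± 1.56 with β-glucan (SD, n = 4 each), and the groups overlapped. For Rpl18 the effect was 0.13 at day 7 and -0.21 at day 28, a difference of -0.36 ± 0.10 (adjusted p = 0.0377), called in 4 of 15 fits that left out a library. The days lie in separate tables, so a change of table cannot be told apart from a change of day. Between MPP and HSC at day 28, 0 of 80 genes were called, against 0.00599% of all genes. There 1 gene had an unadjusted p under 0.05, Rps4l at 0.36 ± 0.15, and DESeq2 and limma voom called 0, against 0.0120% and 0.00599% of all genes. Between HSC after 5-FU and at day 28, edgeR, DESeq2 and limma voom called 0 of 81, 79 and 81 genes, against 0.106%, 1.02% and 0.695% of all genes in that order, with 4 at an unadjusted p under 0.05. The lowest p there belonged to Rps27l (-0.34 ± 0.11) and Rps2 (-0.97 ± 0.30), both with an adjusted p of 0.256.

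What the genes share in their DNA was read from RefSeq promoter windows (GRCm38.p6), which run from 250 bases before to 50 bases after a listed start and were at hand for 60 of 82 genes. The TOP motif was sought as a run of C and T on the transcript strand that overlaps the bases from 5 before to 5 after the start. A run of 8 or more was held by 23 of 60 genes (38.3%), against 11.4% of all 27025 genes with a window and 12.6% of the 10307 of them tested in MPP against HSC. A run of 12 or more was held by 16.7% of ribosomal protein genes, 3.44% of all genes and 4.08% of tested genes. Listed starts can lie some bases from the start in use, so a missing run says only that these letters are not at that place. The runs are shown in capitals in 30 bases, 15 before the start and 15 from it on, for genes with a long run and for Rpl10 and Rps2, which have none.
Rpl7a, chr2:26910792-26910821, plus strand: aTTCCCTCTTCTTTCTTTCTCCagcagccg
Rpl15, chr14:18270972-18271001, minus strand: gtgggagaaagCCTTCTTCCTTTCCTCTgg
Rps10, chr17:27635230-27635259, minus strand: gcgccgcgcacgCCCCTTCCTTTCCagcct
Rpl35a, chr16:33056467-33056496, plus strand: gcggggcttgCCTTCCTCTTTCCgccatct
Rpl18, chr7:45718056-45718085, plus strand: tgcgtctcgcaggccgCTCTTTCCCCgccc
Rpl10, chrX:74270801-74270830, plus strand: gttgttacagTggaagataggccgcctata
Rps2, chr17:24720048-24720077, plus strand: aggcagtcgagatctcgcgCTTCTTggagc
The longest of these runs had 21 bases in Rpl7a and 17 in Rpl15, whereas that of Rps2 had 6 and that of Rpl10 had 1.

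Single motifs were searched on both strands of the same windows. CTTCCGG, the core bound by ETS factors such as GABPA, was held by 25 of 60 genes (41.7%), against 9.93% of all genes and 19.8% of tested genes. The pyrimidine-rich CTCTTTCC was held by 16.7%, against 3.57% and 3.79%, and CTTTCC, which is contained in it, by 53.3%, against 29.3% and 30.6%. TATAAA, the TATA box, was held by 10.0% of these genes, 15.7% of all and 9.16% of tested genes, and CACGTG, the E-box that Myc can bind, by 10.0%, 8.09% and 11.5%. The ETS core is shown in capitals for 3 genes of different parts of the ribosome.
Rpl19, chr11:98026660-98026689, plus strand: acttagcgtgaCTTCCGGctacccagagga
Rps2, chr17:24719925-24719954, plus strand: atttatacgtcCTTCCGGctggtgtagggc
Rplp2, chr7:141447532-141447561, plus strand: gaaatgtcttcCTTCCGGtgcacccttttc
Genes with and without these letters differed little between MPP and HSC. The 23 genes with a run of 8 had a median of 0.27 in PBS mice and 0.29 in β-glucan mice, with 13 and 16 called higher, and the 35 tested genes without one had 0.25 and 0.28, with 16 and 20 called higher. With CTTCCGG the medians were 0.26 and 0.27 (24 genes), and without it 0.26 and 0.30 (34 genes).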

How the data were processed

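The deposited values were read counts per gene, which the authors made with featureCounts on mm10, per the submitters' processing notes. The aligner and the treatment of reads with several matches are not given in the sources used here. RNA was prepared with a SMARTer kit that marks no strand, per the labels' protocols, so overlapping genes on opposite strands cannot be told apart. Levels per kilobase were divided by the length of a single GENCODE M21 transcript per gene, and the deposited gene length column was not used for them. Column names gave cell and treatment, and the day from the table's composition. Symbols came from GENCODE M21; 563 of 45706 identifiers, with at most 0.0908% of a library's counts, had none.

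Counts were filtered with filterByExpr (minimum count 10), scaled by TMM and tested with edgeR 4.0.16 in R 4.3.3 (quasi-likelihood test, Benjamini-Hochberg over all genes, threshold 0.05) on the groups compared. Standard errors are the log2 fold change divided by the square root of F. The procedure was also run on simulated counts with independent libraries, and its outcome is not given or drawn on here. DESeq2 1.42.0 and limma 3.58.1 (voom) served as alternatives. CPM are on TMM-scaled totals within each table, whereas levels per kilobase and the summed CPM of copies are on unscaled totals. Named genes were those called, up to 12 by p, or the 6 of smallest p, the largest change each way, genes of prior interest and the 5 highest and 5 lowest levels. Up to 3 genes were named per list. The genes, lists and tests were chosen with earlier results of these data known. Genes and values outside that rule, the pseudogenes, Rplp1, Rplp2, Fau and Rps2 after 5-FU among them, were chosen after seeing the data. A few genes are left unnamed, with no values of their own given.

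Replicate numbers were taken to pair samples only in MPP against HSC of β-glucan mice, where same-numbered libraries correlated at 0.14 to 0.23 in all 4 pairs. The main fit of that contrast left this pairing out. Its calls, fold changes and standard errors are unpaired, save where the replicate block is named. Alternatives were other scalings, filters and tools, 1 fit of all groups, a replicate block, copies added and each library left out. No pair of replicates agreed within counting noise. Sequences came from GENCODE M21 transcripts and RefSeq promoter windows on GRCm38.p6.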

Additional observations from a re-analysis of the deposited data

Results flagged for a closer look

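In 105 sets of 4 values, from the CPM of 14 genes and the share of counts on all 82 in each of the 7 groups of 4 libraries, a library far from the other 3 was sought with Dixon's test at the 95% level, and 8 were found. Chance alone gives about 1 in 20 such sets. In PBS HSC at day 28, Rpl10a read 4.49 CPM in 1 library and 7.24 in the nearest other, and Rpl3l read 0.221 against 0.404. In PBS MPP, Rps2 read 22.2 against 19.4, Rpl22 read 239.8 against 228, and Rpl3l read 0.162 against 0.491. In β-glucan MPP, Rps27l read 119 against 139. After 5-FU, Rps19 read 1565 CPM in 1 PBS library against 1389, and Rpl13 read 45.4 in β-glucan replicate 4 against 29.0. In that last library Rpl13-ps6 read 296 CPM, and 114 to 126 in the other β-glucan libraries.

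The effect of β-glucan differed between day 28 and day 7 of HSC, by the contrast of 4 groups, for Rps4l (-0.91) and Rpl18 (-0.36).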

How the results depend on the processing

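Over 225 values of single genes and their 4602 alternatives, 4477 kept their direction and their side of the threshold, 68 lost a call, 41 gained one and 16 changed sign, where a change of sign by less than the standard error of an uncalled value was not counted. The sign changes were all in uncalled genes. With scaling by total counts, which moved the median of all genes by up to 0.13 in the contrast of day 28 with day 7, the values in MPP with β-glucan became 0.024 for Rps19, 0.022 for Rps14, 0.056 for Rplp0, 0.032 for Rpsa, 0.067 for Rpl3, 0.019 for Rpl39, 0.072 for Rps4x, 0.056 for Rpl22, 0.0013 for Rpl13a and 0.043 for Rps6, after 5-FU 0.0047 for Rps27 and 0.013 for Rpl3, and for day 28 minus day 7 0.0080 for Rplp0 and 0.11 for Rpl3. Rps19 in MPP ranged from -0.10 to 0.025 with a library left out, the last without β-glucan replicate 3, and Rpl11 after 5-FU became 0.0097 with copies added.

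Calls at day 7 were 0 with the replicate block, against 645 of 16403 of all genes, and 0 to 1 with a library left out. The share of all genes called is not given for fits with a single library left out. In HSC at day 28 there was 1 call without a filter (Rps2, against 182 of 29163 of all genes) and 1 with limma voom (Rps3, against 598 of 16025). All 8 groups in 1 fit gave 2 calls (Rpl4 and Rps2, against 525 of 18626). Without PBS replicate 2 and β-glucan replicate 3 there were 2, against 669 of 16103, and with 1 library left out 0 to 0. In MPP there was 1 call with all 8 groups in 1 fit, against 228 of 18626 of all genes, and 0 to 2 with a library left out. MPP against HSC gave 16 to 50 calls in PBS mice and 39 to 51 in β-glucan mice with a library left out, and 36 to 53 and 47 to 63 under the other alternatives. Calls over all genes under those other alternatives ran from 3037 (of 9879) to 4998 (of 16122) in PBS mice. In β-glucan mice they ran from 4702 (of 18626) to 6706 (of 15945). The replicate block gave 45 and 60 calls there, against 3516 of 16122 and 6706 of 15945 of all genes. Without the block 3493 and 5678 of all genes were called. Among the genes named by rule, Rps2, Rps14 and Rpl41 gained a call with it in β-glucan mice. The block changed no count of called ribosomal protein genes by over 1.5 times other than at day 7 and between days. Same-numbered libraries correlated at -0.08 to 0.01 at day 7, -0.06 to 0.19 in HSC at day 28, 0.01 to 0.13 in MPP, -0.05 to -0.02 after 5-FU and 0.04 to 0.14 in MPP against HSC of PBS mice. Day 28 minus day 7 gave 1 call with DESeq2 size factors (against 821 of 17977 of all genes) and 1 with total counts (against 900 of 17977). It gave 9 with limma voom (against 8.96% of all genes) and 1 with the replicate block (against 711 of 17977). DESeq2 gave 3 (against 9.86%), and leaving a library out gave 0 to 3. The cause was not tested.

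Without haemoglobin in the total, the shares were 3.42% with PBS and 3.29% with β-glucan at day 7, 2.52% and 2.43% for day 28 HSC, 3.07% and 3.05% for MPP, and 3.33% and 3.25% after 5-FU. With copies recognised by name added, they were 3.77% and 3.78% at day 7, 3.66% and 3.63% for day 28 HSC, 4.53% and 4.71% for MPP, and 4.77% and 4.83% after 5-FU. With copies recognised by sequence, they were 4.49% and 4.49%, 5.26% and 5.22%, 6.503% and 6.75%, and 6.85% and 6.94%.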

Other observations

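The pattern of Rps2 at day 28, high in β-glucan replicates 3 and 4 of both cell types, was shared with genes of other kinds. Likeness to Rps2 was taken as Pearson's r on log2(CPM + 1) over the 16 libraries of day 28, among 11145 genes with a mean of at least 3 CPM. Most like it was Ncln (0.994), a regulator of membrane protein assembly. The Rps2 copies Gm12366 (0.992), Gm5786 (0.990) and Gm11249 (0.990) followed, then Cox5a (0.984), Uck1 (0.984) and Kti12 (0.982). The nearest other ribosomal protein gene, Rpl13, had an r of 0.593 and rank 1433. These genes were picked for their likeness after the values were seen, so the values are a description without a test, and the 16 libraries form 4 groups.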
